A study of Mus musculus with 15 samples.

Results

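The proteins of the mammalian cytosolic ribosome are encoded by a gene family whose symbols begin with Rpl (large subunit) or Rps (small subunit). Its members were taken from the RNA count tables by symbol: Rpl or Rps followed by a digit, or Rpsa, Rplp0, Rplp1 and Rplp2. Symbols with -ps, which name pseudogene copies, and the Rps6k kinases were left out. The rule found 91 of 37583 gene rows: 45 large-subunit and 31 small-subunit genes of the canonical set, 9 paralogs and retrocopies (such as Rpl22l1 and Rps27rt), 5 rows that RefSeq lists as pseudogenes, and Rps19bp1, which encodes a protein that binds RPS19 and is no ribosome subunit. Rpl24 is not analysed here. The cells were mouse B cell lymphomas purified from tumours, without culture, on magnetic beads that bind B220 (CD45R), a protein on the surface of B cells. The EV group held 4 libraries from tumours transduced with an empty vector. The sh-Kmt2d group held 5 libraries from tumours transduced with a short hairpin RNA against Kmt2d, which encodes a histone H3 lysine 4 methyltransferase. No source used here gives the mouse strain, age or other alleles, the hairpin's sequence or the promoter of the vectors.

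Ribosomal proteins assemble with ribosomal RNA in the nucleolus, and their mRNAs are among the most abundant of growing cells, B cell lymphomas included. Many of these mRNAs begin with a C followed by a run of pyrimidines, the 5′ terminal oligopyrimidine (TOP) motif, through which mTOR signalling and LARP1 set their translation. Most members also have processed pseudogenes, intronless copies of the mRNA, so that short reads can match several places in the genome. When assembly is disturbed, free RPL5 and RPL11 bind MDM2, the inhibitor of p53.

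Several members have a pyrimidine run at or near the annotated start. In Rplp2 and Rps6 it begins at that start, as in the TOP motif, and in Rps27l and Rpl22l1 it begins 1 and 3 bases after it. The lines below give 20 bases before and 20 bases from the annotated start, 5′ to 3′, with the run in capitals. These sequences are from RefSeq on build GRCm38.p6. They were chosen to show a stalk protein, the substrate of S6 kinase, and 2 paralogs.
Rplp2: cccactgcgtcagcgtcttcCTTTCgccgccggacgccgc
Rps6: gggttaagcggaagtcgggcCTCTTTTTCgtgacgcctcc
Rpl22l1: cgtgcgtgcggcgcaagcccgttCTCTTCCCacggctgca
Rps27l: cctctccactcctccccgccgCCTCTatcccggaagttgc
These windows lie at chr7:141447631-141447670 (plus strand) for Rplp2, chr4:86857348-86857387 (minus) for Rps6, chr3:28805488-28805527 (plus) for Rpl22l1 and chr9:66946066-66946105 (plus) for Rps27l. The search took a C followed by at least 4 further letters that were each C or T, on the transcribed strand, beginning at the annotated start or up to 5 bases from it. Of the 66 members matched to a promoter by symbol, 30 (45.5%) had such a run, beside 21.2% of 27025 genes with a promoter.

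Over the family, the share of counts was low in every EV library and uneven among the sh-Kmt2d libraries. The 91 rows held 1.53%, 2.22%, 1.78% and 2.54% of the gene counts in EV replicates 1 to 4, and 3.07%, 3.71%, 2.11%, 4.31% and 11.4% in sh-Kmt2d replicates 1 to 5. The mean was 2.02% ± 0.45 (SD, n = 4) for EV and 4.93% ± 3.73 (SD, n = 5) for sh-Kmt2d. sh-Kmt2d replicate 3 lay inside the EV range, and replicate 5 lay above every other library. Without replicate 5 the difference of the means was 1.28 percentage points, against 2.91 with it. The 95% exact binomial interval of the largest share ran from 11.4% to 11.5% and covers counting error only.

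The share of alignments that were not unique, and so were not counted on any gene, moved with the same libraries. It was 36.5%, 42.5%, 38.3% and 47.9% in EV replicates 1 to 4, and 50.9%, 53.9%, 44.1%, 57.2% and 73.7% in sh-Kmt2d replicates 1 to 5. The 5 libraries highest in this share were also the 5 highest in the family's share, in the same order. Rows named -ps of the same family held 12.3 to 12.8 counts per 100 member counts in EV and 12.5 to 14.9 in sh-Kmt2d. The part of uncounted reads in the family's difference was not tested.

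**Figure D1:**
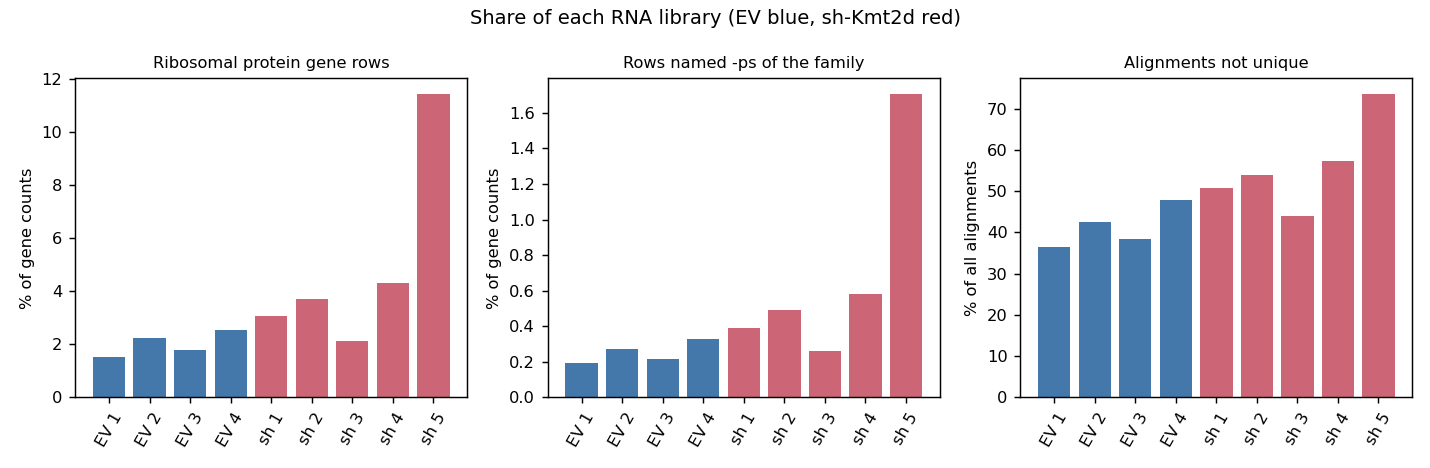
Bars give, for each of the 4 EV and 5 sh-Kmt2d libraries, the ribosomal protein rows as % of gene counts (left), the family's -ps rows as % of gene counts (middle) and the alignments that were not unique as % of all alignments (right). sh-Kmt2d replicate 5 is the highest bar in each panel, at 11.4%, 1.71% and 73.7%.

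Depth was 5925745 to 29284830 gene counts per library, lowest in sh-Kmt2d replicate 5, which also had the fewest genes with a count (16008). Kmt2d itself had 498, 252, 492 and 94.4 CPM (counts scaled to a common library size) in EV replicates 1 to 4 and 57.4, 46.8, 204, 18.8 and 9.77 in sh-Kmt2d replicates 1 to 5, so the library labelled EV replicate 4 lay below the one labelled sh-Kmt2d replicate 3 (log2 fold change -2.31 ± 0.84 (SE), adjusted p = 0.167 by edgeR). For CPM, library sizes were multiplied by a TMM scaling factor, which was 0.536 in sh-Kmt2d replicate 5 and 0.998 to 1.12 in the other libraries. A factor under 1 raises the CPM of a library relative to its share of gene counts. The sample titles join a first number to each library, 78 or 87 in EV and 103 or 110 in sh-Kmt2d. No number occurs in both groups. sh-Kmt2d replicates 4 and 5 are the libraries numbered 110. All 10 B cell markers were detected, and their summed level was 11070 to 13246 CPM in EV and 11901 to 34270 in sh-Kmt2d. One by one, 4 of them had a positive and 6 a negative log2 fold change by edgeR, with a median of -0.14. The 10 T cell markers summed to 118 to 175 CPM in EV and 178 to 432 in sh-Kmt2d, and the 7 plasma cell markers measured to 2776 to 6244 and 4626 to 14776, with no marker under 1 CPM in every library. The 10 macrophage markers summed to 194 to 699 CPM in EV and 161 to 318 in sh-Kmt2d. The 8 erythroid markers measured summed to 37.4 to 988 CPM in EV and 63.8 to 200 in sh-Kmt2d, and the 8 neutrophil markers to 7.05 to 214 and 2.40 to 51.1, with both highest values in EV replicate 4. Their part in the results below was not tested, and a change in the number of cells of a type cannot be told apart from a change of RNA per cell in such bulk samples. EV replicate 2 held both Xist (75.7 CPM) and the Y-linked Ddx3y (143 CPM). Some libraries with the same first title number differed in these genes. Ddx3y had 186 CPM in EV replicate 3 and 0.213 in EV replicate 4 (both numbered 87). It had 93.9 CPM in sh-Kmt2d replicate 1 and 0.253 in sh-Kmt2d replicate 3 (both numbered 103).

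No member passed the test across all genes. Of the 91 rows, 84 passed the filter on low counts. By edgeR's quasi-likelihood test 0 of these had an adjusted p under 0.05 in either direction, as had 0% of all 13349 genes, and the smallest adjusted p among the members was 0.167. At an unadjusted p under 0.05, 58 of 84 were higher in sh-Kmt2d, beside 17.3% of all genes, and 2 were lower (Rpl9 and Rpl5), beside 11.1% of all genes. DESeq2 gave 0 of the 65 members with an adjusted p under the threshold (1.42% of all genes higher and 2.8% lower) and, unadjusted, 38 of 68 higher (12.9% of all genes) and 3 lower (11% of all genes). DESeq2 gave no p for 23 of the 84 tested members. Of the 58 members higher by edgeR's unadjusted p, 22 had none, and all of the 36 others were higher by DESeq2's unadjusted p. limma voom gave 0 adjusted calls and, unadjusted, 17 of 84 higher (9.35% of all genes) and 2 lower (13.4% of all genes). The median log2 fold change of the 84 members was 1.65, against -0.04 over all genes tested.

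The size of that median rested on 1 library and the unadjusted count on others. Without sh-Kmt2d replicate 5, 55 members were higher (18.6% of all genes) with a median of 0.70, and 4 were lower (Rpl9, Rpl5, Rps13 and Rps28; 18.1% of all genes). Without both libraries numbered 110, 31 were higher (11.4% of all genes) and 3 lower (14.3%), and the median was 0.53. Without EV replicate 1 the count was 4 higher (4.39% of all genes) and 1 lower (5.64%), without EV replicate 2 it was 29 (6.58%) and 1 (7.67%), and without EV replicate 3 it was 6 (4.14%) and 1 (5.81%). Without EV replicate 4 it was 43 (14.5%) and 3 (12.7%), with a median of 1.77. With the first title number as a random block in limma, 0 were higher (1.85% of all genes) and 0 were lower (6.61%), with a median of 1.39. Among the libraries numbered 87 and 103 alone, 3 against 3, 3 members were higher (5.21% of all genes) and 3 lower (7.85%), with a median of 0.42.

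The order of the libraries was shared by most members. sh-Kmt2d replicate 5 was the highest of the 9 libraries for 79 of the 84 members, sh-Kmt2d replicate 4 was second for 62, and EV replicate 1 was lowest for 56. The median member stood 3.21 above the EV mean on the log2(CPM + 0.5) scale in sh-Kmt2d replicate 5, 1.17 in replicate 4, 0.84 in replicate 2, 0.58 in replicate 1 and -0.01 in replicate 3. The groups did not overlap for 5 of 84 members, all higher in sh-Kmt2d (5.72% of all genes), and 0 were lower without overlap (5.12% of all genes). These 5, named after their values were seen, were Rpl15, Rps10, Rps16, the paralog Rpl7l1 and Rps19bp1. A share near that of all genes is no result about the family.

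**Figure D2:**
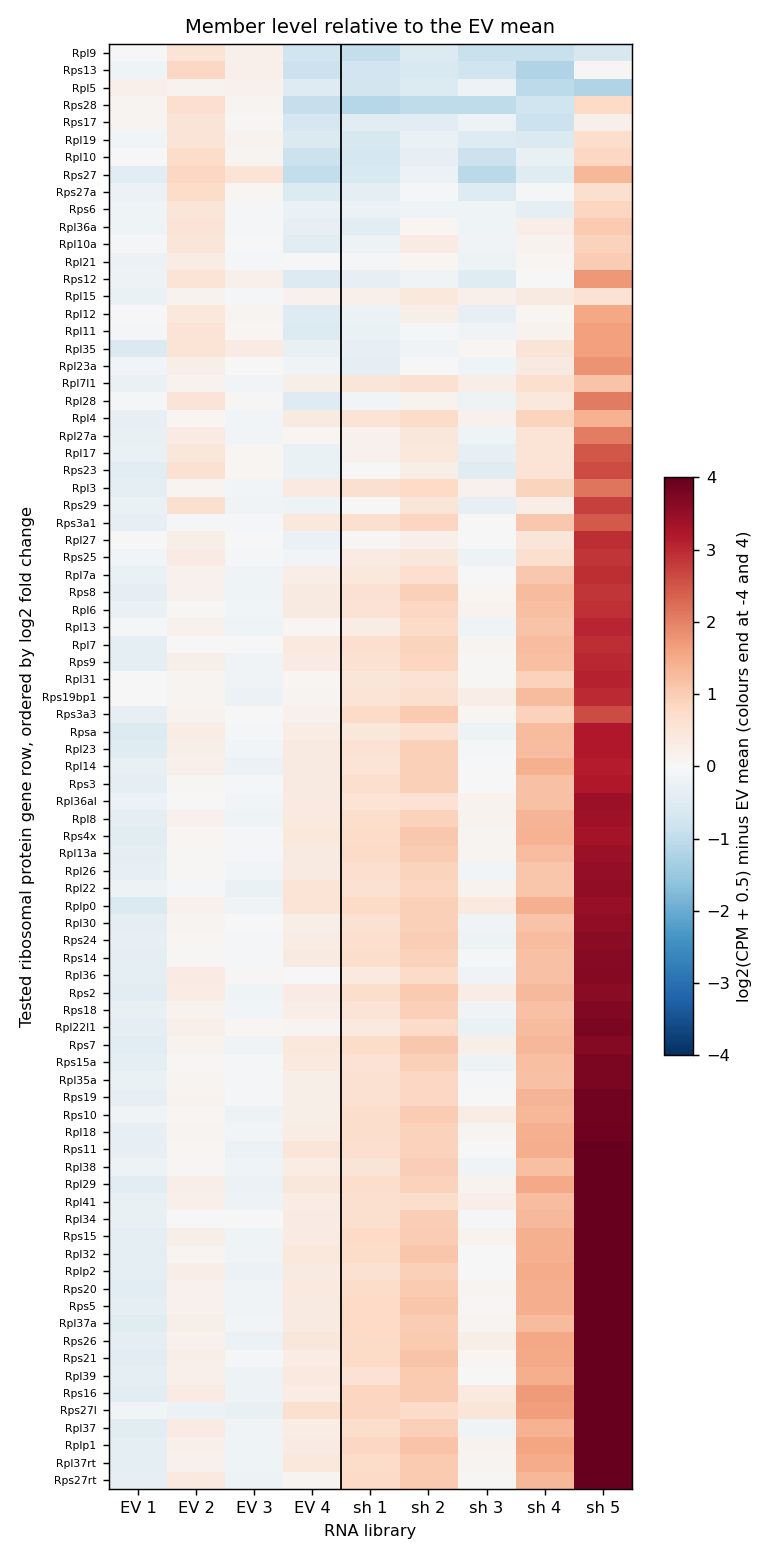
Each row is 1 of 83 tested members, ordered by log2 fold change, and each column 1 of 9 libraries; the colour is log2(CPM + 0.5) minus the mean of the 4 EV libraries, with colours ending at -4 and 4. The last column, sh-Kmt2d replicate 5, is the highest for 78 of them, and the rows at the top (Rpl9, Rps13, Rpl5, Rps28) have most of their blue cells in sh-Kmt2d.

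Among the stalk proteins, which recruit the translation factors that drive elongation, Rplp1 and Rplp2 had fold changes in the upper range of the family. Rplp1 (ENSMUSG00000007892) had 382, 567, 434 and 621 CPM in EV replicates 1 to 4 and 865, 1090, 546, 1465 and 11056 CPM in sh-Kmt2d replicates 1 to 5. Replicate 3 of sh-Kmt2d lay within the EV range, and replicate 5 stood far above the rest. The log2 fold change of Rplp1 was 2.58 ± 0.92 (SE; adjusted p = 0.167 by edgeR), and 0.98 without replicate 5. Rplp2, whose start is printed above, had 145 to 241 CPM in EV and 192 to 528 in sh-Kmt2d replicates 1 to 4, with 3472 in replicate 5 (log2 fold change 2.32 ± 0.88). Rplp0, their anchor on the ribosome, had a log2 fold change of 1.85 ± 0.68, below the family's upper quartile of 2.15, and 0.89 without replicate 5.

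The 5S ribonucleoprotein members differed from the stalk. Rpl5 had 17.5, 16.6, 17.0 and 10.3 CPM in EV and 8.93, 10.2, 13.0, 7.08 and 6.31 CPM in sh-Kmt2d, with sh-Kmt2d replicate 3 above the lowest EV library. Its log2 fold change was -0.74 ± 0.27 (SE; unadjusted p = 0.022, adjusted p = 0.167 by edgeR). Rpl11, its partner in binding MDM2, had 8.64, 13.3, 9.41 and 5.96 CPM in EV and 7.43, 8.63, 8.03, 9.93 and 29.0 CPM in sh-Kmt2d. All but the last sh-Kmt2d value lay inside the EV range, and the log2 fold change of 0.40 ± 0.46 went to -0.13 without replicate 5 and to -7.3e-05 with scaling by total counts. Among the 8 tested genes of a list on the 5S particle and p53, 3 were higher (37.5%, beside 17.3% of all genes) and 1 was lower (12.5%, near the 11.1% of all genes) by unadjusted p. Cdkn1a, a p53 target that blocks the cell cycle, had 4.20 to 10.1 CPM in EV and 12.2 to 42.3 in sh-Kmt2d (log2 fold change 1.66 ± 0.39, adjusted p = 0.167). Mdm4, an inhibitor of p53, had 76.8 to 234 CPM in EV and 7.25 to 112 in sh-Kmt2d (-1.90 ± 0.66, adjusted p = 0.167).

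In the small subunit, 5 of the members named for their role had positive log2 fold changes of similar size, while Rps6 (-0.01 ± 0.34), Rps27 (-0.17 ± 0.58) and Rps27a (-0.11 ± 0.33) lay near 0. Rps3, at the mRNA entry, had 1398, 1848, 1725 and 2282 CPM in EV and 2858, 3424, 1819, 3982 and 16487 CPM in sh-Kmt2d. Only sh-Kmt2d replicate 3 lay within the EV range, and the log2 fold change was 1.66 ± 0.65 (SE; adjusted p = 0.167 by edgeR). Rps14 and Rps19, whose human counterparts are tied to the anaemias of 5q deletion and Diamond-Blackfan syndrome, had log2 fold changes of 1.93 ± 0.75 and 2.07 ± 0.80. Rps15 reached 2.27 ± 0.83 and Rps4x, the X-linked member, 1.79 ± 0.65. Without sh-Kmt2d replicate 5 these 5 members stood between 0.73 and 0.89.

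Large-subunit members of known function had values over a wider range. Rpl3, near the peptidyl transferase centre, had 62.6, 86.7, 73.9 and 105 CPM in EV and 125, 141, 90.8, 151 and 359 CPM in sh-Kmt2d (log2 fold change 1.08 ± 0.41). Rpl22, which is mutated in some T cell leukaemias, had 365 to 631 CPM in EV and 481 to 936 in sh-Kmt2d replicates 1 to 4, with 5086 in replicate 5 (1.83 ± 0.73). Rpl39, a small protein of the exit tunnel, had a log2 fold change of 2.49 ± 0.93, and 0.83 without replicate 5. Rpl10, the late-joining protein mutated in some T cell leukaemias, had a negative value, with 67.7, 112, 73.9 and 37.4 CPM in EV and 41.3, 53.9, 36.7, 54.4 and 120 CPM in sh-Kmt2d. Its groups overlapped, and the log2 fold change was -0.25 ± 0.42 (adjusted p = 0.664 by edgeR). Over the canonical members the median log2 fold change was 1.55 for 45 of the large subunit and 1.79 for 31 of the small, and 0.68 and 0.73 without sh-Kmt2d replicate 5.

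Members with few reads held most of the low values. Among the most positive were Rps27rt (2.70), Rpl37rt (2.58) and Rplp1 (2.58), and the 4 most negative were Rpl9 (-0.87), Rps13 (-0.78), Rpl5 (-0.74) and Rps28 (-0.65). Ordered by mean CPM over the 9 libraries, which measures reads and not level per length, the 28 lowest members (0.946 to 31.4 CPM) had a median log2 fold change of 0.43, the middle 28 (40.5 to 337 CPM) 1.93 and the 28 highest (340 to 4854 CPM) 2.06. Without sh-Kmt2d replicate 5 the medians were -0.03, 0.72 and 0.82, in the same groups of members. Because the order used all 9 libraries, a member raised in sh-Kmt2d was also moved up in it. Rps27l (mean 21.2 CPM in EV) was in the middle 28, and Rpl9 (mean 33.3 CPM in EV) in the lowest 28. The link of read level and fold change is therefore in part built in. At an unadjusted p under 0.05, 6 of 28 (21.4%), 24 of 28 (85.7%) and 28 of 28 were higher, beside 17.3% of all genes, which the first of these shares is near. The lowest 28 held 9 of the 10 members with a negative log2 fold change, and Rpl10, in the middle 28, was the other one. In sh-Kmt2d replicate 5 the median of the lowest 28 stood 1.69 above the EV mean on the log2(CPM + 0.5) scale, and that of the highest 28 stood 3.83 above it.

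**Figure D3:**
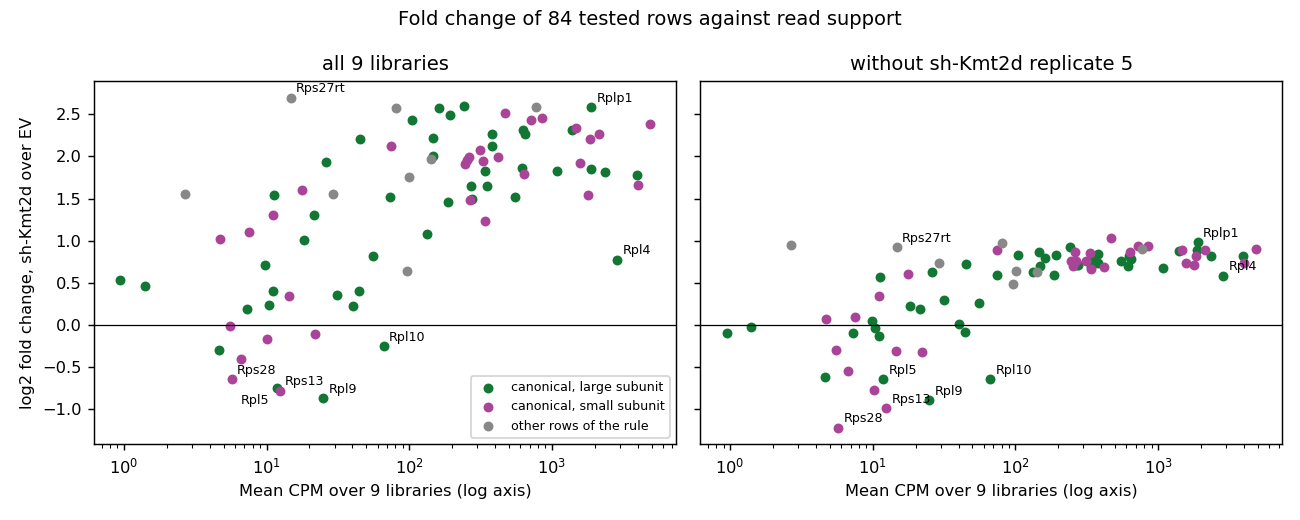
Points are the 84 tested members, with mean CPM over 9 libraries on a log axis and the edgeR log2 fold change (sh-Kmt2d against EV), for all libraries (left) and without sh-Kmt2d replicate 5 (right). Negative values are confined to members under 100 CPM in the left panel, and the 28 highest members have a median of 2.06 in the left panel and 0.82 in the right. The mean CPM includes the sh-Kmt2d libraries, so the axes are not independent.

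Rows named -ps were counted beside the members. Of 195 such rows, 183 had a count, 57 members had at least 1, and 78 rows passed the filter. Of these 78, 77 had a positive log2 fold change and 61 (78.2%) were higher at an unadjusted p under 0.05, beside 17.3% of all genes, with a median of 1.98. Some rows with few counts in EV passed the filter through the sh-Kmt2d libraries. Rplp0-ps1, for example, had 0.281 to 0.816 CPM in EV and 0.443 to 5.04 in sh-Kmt2d. The number of positive rows is therefore in part set by the filter. For 18 of the 57 members, the -ps rows together held more CPM than the member's own row. In these 18 the median log2 fold change was 1.19 for the member and 2.03 for its most counted -ps row, and the -ps row was the more positive in 15. In the 25 other members with a tested top -ps row the medians were 1.86 and 2.12, and the -ps row was the more positive in 18. The 18 members of the first set and the most counted rows were chosen on means over all libraries, sh-Kmt2d included. A -ps row high in sh-Kmt2d was thus more likely to be chosen, so the more positive values of the -ps rows are in part built in.

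Rps13 (ENSMUSG00000090862) and its copy had log2 fold changes of opposite sign in the same libraries. The member row had 13.1, 26.2, 17.0 and 7.84 CPM in EV and 8.42, 9.35, 8.16, 6.12 and 15.1 CPM in sh-Kmt2d (log2 fold change -0.78 ± 0.38, adjusted p = 0.189 by edgeR). Rps13-ps2 had 67.5, 90.9, 76.5 and 114 CPM in EV and 134, 165, 90.1, 228 and 1242 CPM in sh-Kmt2d (2.09 ± 0.78, adjusted p = 0.167). Of the sum over the member and all its -ps rows, the -ps rows held 83.8%, 77.7%, 81.9% and 93.6% in EV replicates 1 to 4, and 94.1%, 94.7%, 91.7%, 97.4% and 98.8% in the sh-Kmt2d libraries. EV replicate 4 was thus nearer to the sh-Kmt2d libraries than to the other EV libraries.

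Rpl9 (ENSMUSG00000047215), the member with the most negative value, showed the same split. Its row had 32.2, 46.2, 36.7 and 18.0 CPM in EV and 16.1, 21.6, 16.8, 16.9 and 19.9 CPM in sh-Kmt2d (log2 fold change -0.87 ± 0.27, unadjusted p = 0.0097, adjusted p = 0.167 by edgeR). EV replicate 4 lay within the sh-Kmt2d range. Rpl9-ps6 had 30.0, 39.4, 32.4 and 41.9 CPM in EV and 53.5, 65.9, 34.5, 83.1 and 368 CPM in sh-Kmt2d (1.75 ± 0.68). The -ps share of the Rpl9 sum was 59.7% to 81.4% in EV and 78.2% to 97.1% in sh-Kmt2d.

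A gap between a member near 0 and a positive copy was seen for Rps6 (log2 fold change -0.01 ± 0.34) beside Rps6-ps4 (1.58 ± 0.58), and for Rpl36a (0.19 ± 0.36) beside Rpl36a-ps3 (1.82 ± 0.75). Rpl5-ps2 had 1.06 ± 0.50 and Rpl10-ps3 2.52 ± 0.99, against negative values of both member rows. Rps28, which had no -ps row, was also negative, with 6.95, 10.6, 7.06 and 3.19 CPM in EV and 2.62, 2.91, 2.91, 3.47 and 11.7 CPM in sh-Kmt2d (-0.65 ± 0.53). In other members the row and its copy had values closer to each other. Rpsa, the laminin receptor protein, had 1.61 ± 0.69 beside 1.82 ± 0.67 for Rpsa-ps11, and its -ps share was 83.6% to 86.9% in EV and 85.7% to 87.9% in sh-Kmt2d. Rps15 had 2.27 beside 2.18 for Rps15-ps2, and Rpl3 1.08 beside 1.04 for Rpl3-ps1. Only 1 of the 78 -ps rows was negative, Rps19-ps3 (-0.06 ± 0.53), beside 2.07 for Rps19. Reads that align alike to a member and to a near-identical copy were not unique, and so were counted on neither row. Other reads can be assigned to either row. Both values are thus uncertain, and how reads were divided between them or lost was not tested.

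**Figure D4:**
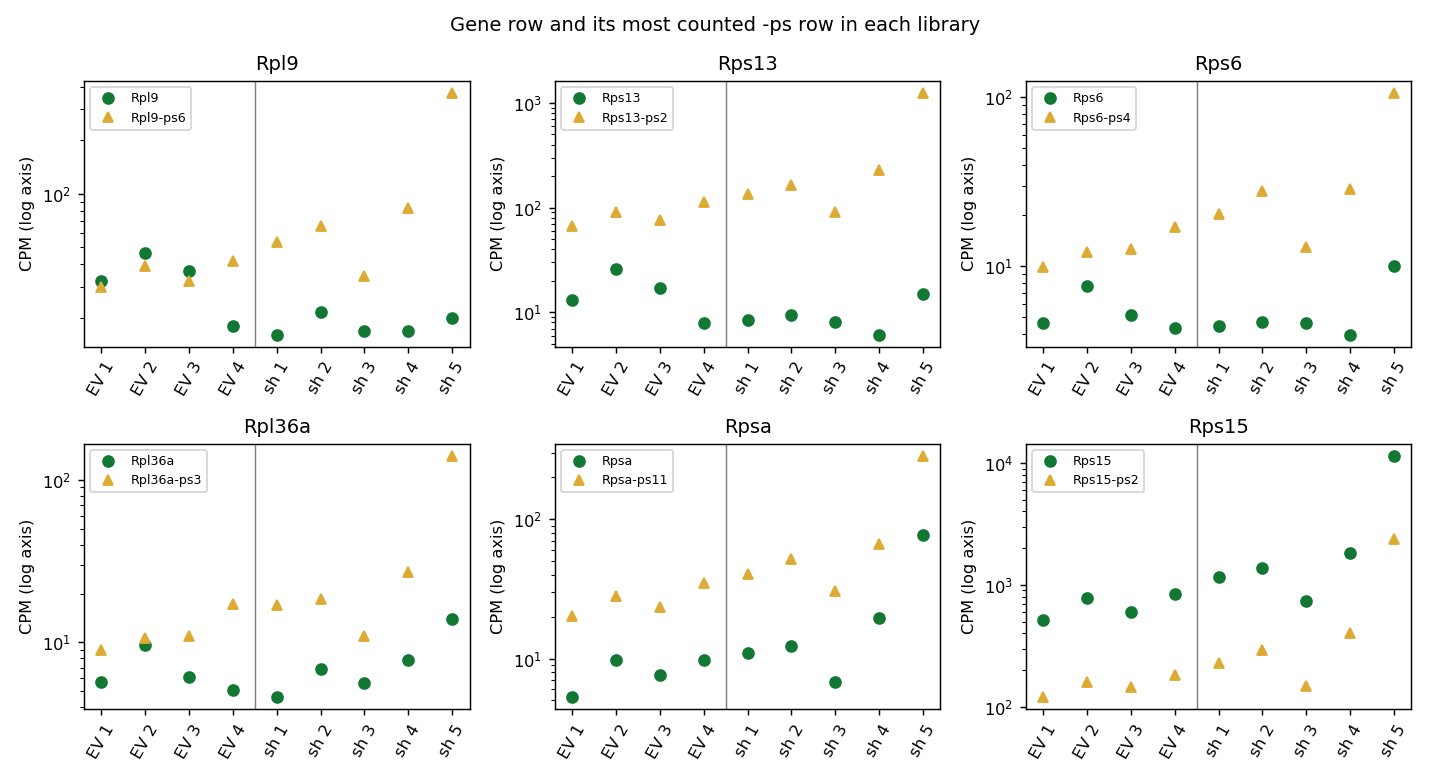
CPM on a log axis of 6 members (circles) and their most counted -ps row (triangles) in the 4 EV and 5 sh-Kmt2d libraries, parted by the grey line. The -ps rows of Rpl9 and Rps13 reach 368 and 1242 CPM in sh-Kmt2d replicate 5 while the member rows stand at 19.9 and 15.1, whereas Rps15 and its copy keep their distance in every library.

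Paralogs gave a comparison within the library, as a ratio of 2 members does not depend on the scaling. Rps27 and its retrocopy Rps27rt show how close such rows can be. From the annotated start, with the shared letters in capitals, they read on build GRCm38.p6 from RefSeq:
Rps27: cCTTTCCGGCGGTGACGACCTCCCTACGAG
Rps27rt: CTTTCCGGCGGTGACGACCTCCCTACGAGA
These lie at chr3:90213619-90213648 (minus strand) and chr9:114982710-114982739 (minus), and within the first 50 bases the shared run was 38 bases long. Rps27 had 6.88, 17.1, 13.9 and 4.47 CPM in EV and 5.96, 7.92, 4.11, 6.53 and 24.3 CPM in sh-Kmt2d, with overlapping groups (log2 fold change -0.17 ± 0.58). Rps27rt had 2.67, 4.72, 2.95 and 3.76 CPM in EV and 6.19, 7.63, 3.54, 9.39 and 91.8 CPM in sh-Kmt2d (2.70 ± 0.99), with replicate 3 of sh-Kmt2d inside the EV range.

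The ratio of 4 paralogs to their canonical members was compared by exact permutation over 126 splits, two-sided, adjusted over the 4 pairs. Rps27l, a p53-induced paralog, stood over Rps27 at 2.73, 1.004, 1.19 and 7.21 in EV and at 6.31, 4.43, 6.91, 10.1 and 19.3 in sh-Kmt2d. EV replicate 4 lay among the sh-Kmt2d libraries, and the mean log2 ratio was 1.90 higher in sh-Kmt2d (exact permutation p = 0.0556, adjusted p = 0.111). Rpl36al over Rpl36a ran from 4.37 to 10.7 in EV and from 8.33 to 33.3 in sh-Kmt2d, with EV replicate 4 again inside the sh-Kmt2d range, a log2 difference of 1.02 (exact permutation p = 0.0556, adjusted p = 0.111). Rpl7l1, a paralog that works in ribosome assembly, over Rpl7 was 0.55 lower on the log2 scale in sh-Kmt2d, at -2.41 ± 0.75 (SD, n = 5) against -1.87 ± 0.16 (SD, n = 4; exact permutation p = 0.159, adjusted p = 0.212). Rpl22l1 over Rpl22 was -3.09 ± 0.26 (SD, n = 5) in sh-Kmt2d and -3.03 ± 0.37 (SD, n = 4) in EV on the log2 scale (exact permutation p = 0.754), and the sign of this difference changed without EV replicate 2, EV replicate 3 or sh-Kmt2d replicate 3. The canonical rows of the first pair and of the second were themselves among the low-count rows. The germline and muscle paralogs Rpl10l, Rpl39l and Rpl3l had mean levels of 0.187, 0.154 and 0.0585 CPM and were not tested.

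Ribosome proteins under other symbols had values in the same range. Rack1, a scaffold on the small subunit, had 1565 to 2532 CPM in EV and 2202 to 4754 in sh-Kmt2d replicates 1 to 4, with 20939 in replicate 5 (log2 fold change 1.81 ± 0.69, adjusted p = 0.167 by edgeR). Fau, the precursor of RPS30, had 2.39 ± 0.86. Rps27a, given above, is a member that is made as a fusion with ubiquitin.

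Families whose proteins form other large complexes had values of similar size. Of 76 mitochondrial ribosomal protein genes tested, 60 were higher at an unadjusted p under 0.05 (78.9%, beside 17.3% of all genes) and 0 were lower (11.1% of all genes), with a median log2 fold change of 1.45. A respiratory chain list was taken by symbol pattern, which also covers ATP synthase subunits and Ndufaf assembly factors. Of its 87 tested genes, 71 were higher (81.6%, beside 17.3%) and 0 lower (beside 11.1%), with a median of 1.95. Without sh-Kmt2d replicate 5 their medians were 0.64 and 0.72, beside 0.70 for the cytosolic members. All 3 families had 0 genes past the adjusted threshold by edgeR, and their differences from each other were not tested.

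The genes that build and regulate ribosomes had smaller medians. Of 38 ribosome biogenesis genes, 6 were higher (15.8%, near the 17.3% of all genes) and 0 lower (beside 11.1%) by unadjusted p, with a median of -0.05, against -0.04 over all genes. The 2 of smallest p were Nop10 (2.45 ± 0.87) and Nhp2 (2.00 ± 0.73), small proteins of H/ACA particles. Of 39 translation factors, 17 were higher (43.6%, beside 17.3%) and 0 lower (beside 11.1%) with a median of 0.32, led by the TOP mRNA Tpt1 (1.86 ± 0.61) and by Eif3k (1.99 ± 0.74). Of 15 genes of mTOR and TOP mRNA control, 2 were higher and 2 lower (13.3% each, near the 17.3% and 11.1% of all genes) with a median of -0.55. Eif4ebp1, which encodes the eIF4E inhibitor that mTOR phosphorylates, had 11.5 to 16.8 CPM in EV and 26.9 to 49.3 in sh-Kmt2d replicates 1 to 4, with 289 in replicate 5 (2.57 ± 0.80, adjusted p = 0.167 by edgeR). Rheb, the activator of mTOR complex 1, had 0.88 ± 0.36.

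**Figure D5:**
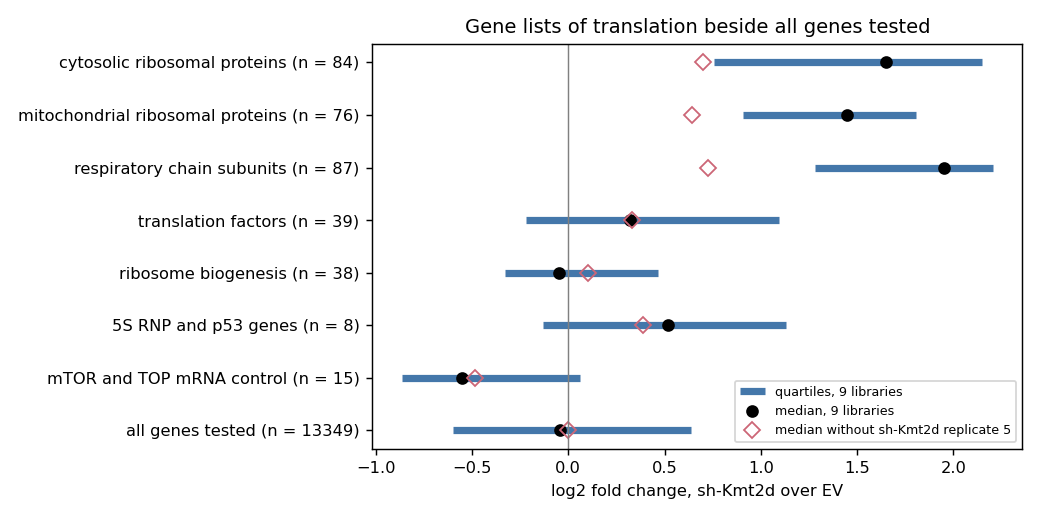
Black points are the median edgeR log2 fold changes (sh-Kmt2d against EV) in 7 gene lists and in all genes tested, blue bars the quartiles, and open diamonds the medians without sh-Kmt2d replicate 5. The cytosolic and mitochondrial ribosomal proteins and the respiratory chain list, taken by symbol, lie at 1.65, 1.45 and 1.95 with all libraries and at 0.70, 0.64 and 0.72 without replicate 5.

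Members with a pyrimidine run at or near the start had a slightly higher median and also a higher read level. Of the members with a promoter that were tested, the 30 with a run had a median log2 fold change of 1.93 (median level 145 CPM). The 33 without one had 1.55 (105 CPM). Without sh-Kmt2d replicate 5 the median fold changes were 0.70 and 0.67. Members with many -ps rows had lower read levels. The 21 canonical members without a -ps row had a median of 1.78 (median level 551 CPM), the 35 with 1 to 3 rows 1.83 (146 CPM) and the 20 with 4 or more rows 1.47 (25.4 CPM). These medians are descriptions with no test, and the levels are means over all libraries, sh-Kmt2d included.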

How the data were processed

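The authors deposited 1 table of raw read counts per gene for each RNA library. The submitters' processing notes name HTSeq 0.6.0, CASAVA 1.8.2 and build mm9; no source used here gives the aligner, the annotation or the use of strand. Summary rows (not unique, no feature, ambiguous) stayed out of library sizes. Symbols were matched for 32860 of 37583 identifiers (87.4%). The 4 EV and 5 sh-Kmt2d libraries were compared by the robust quasi-likelihood F-test of edgeR 4.0.16 (R 4.3.3; two-sided) after filterByExpr and TMM scaling, and p was adjusted over 13349 genes (Benjamini-Hochberg); standard errors are approximate. Alternatives were DESeq2 1.42.0, limma 3.58.1 voom, other scalings, no filter, left-out libraries and blocks. The scripts were tested on simulated data.

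The members, lists and rules were chosen with earlier results of these data known. Members named with values are those of textbook role, paralog pairs, the 4 most positive and 4 most negative, their -ps copies, and the 2 genes of smallest p in each other list; 2 genes that the rule takes are not reported here. Transcript and protein lengths were not used here, so levels are not compared between genes, and H3K4me1/2 peaks (mm9) were not analysed here. Replicate numbers follow sample order. The labels do not say which libraries came from separate animals. Xist and Ddx3y differ between libraries of 1 title number, so those are not repeats of 1 animal; for the others, p-values may measure only technical spread. No 2 libraries of a group agreed within sampling noise (chi-square per gene at least 23).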

Additional observations from a re-analysis of the deposited data

Results flagged for a closer look

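Among the values named above, 60 groups were checked for a library far from the others of its group, judged by its gap to the nearest library over the range of the group (above Dixon's 95% critical value, which chance exceeds in about 1 of 20 groups). On the linear scale 27 stood out, and on the log2 scale 5. In 24 of the 27 it was sh-Kmt2d replicate 5. For the family's share of gene counts this library stood highest at 11.4%. For members, it stood highest in CPM for Rplp0 (8144), Rplp1 (11056), Rplp2 (3472), Rpl11 (29.0), Rps6 (10.1), Rps3 (16487), Rpsa (76.6), Rps19 (1615), Rps14 (7623), Rps15 (11442), Rpl10 (120) and Rpl22 (5086). It also stood highest for Rpl22l1 (729), Rps27 (24.3), Rps27l (469), Rpl36al (463), Rpl39 (1135), Rpl3 (359), Rpl7 (2046), Rps4x (2680), Rps27rt (91.8), Rpl37rt (4616) and Rps28 (11.7). EV replicate 4 stood apart for 3 members, being the lowest EV library for Rpl5 (10.3 CPM) and the highest for Rpl22 (631 CPM) and Rps27l (32.2 CPM). sh-Kmt2d replicate 5 was also the library with the fewest gene counts and the most alignments that were not unique, whose part in these values was not tested.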

How the results depend on the processing

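No member passed the adjusted threshold in any of the alternatives run. The counts at an unadjusted p under 0.05 were less steady. Leaving out 1 library gave 4 to 60 members higher and 1 to 4 lower, and a median log2 fold change of 0.70 to 1.86. The 4 higher, without EV replicate 1, stood beside 4.39% of all genes, and the share beside the 60 is not given here. The 4 lower, without sh-Kmt2d replicate 5, stood beside 18.1% of all genes. DESeq2's test gave 38 higher (12.9% of all genes), with no p for 23 of the 84 members, 22 of them among the 58 higher by edgeR. limma voom gave 17 higher (9.35% of all genes). Scaling by total counts in edgeR gave 55 higher (12.4% of all genes) and 4 lower (9.55%). This scaling put the median of the members at 1.14 and that of all genes at -0.20 against -0.04. Without both sh-Kmt2d libraries numbered 110, 31 were higher (11.4% of all genes) and the median was 0.53. The first title number as a random block (correlation 0.439) gave 0 higher (1.85% of all genes) and 0 lower (6.61%). The last title number as a replicate block gave 7 higher (9.95% of all genes), 6 lower (14.6%) and a median of 0.52; it does not pair the libraries, as same-numbered libraries had correlations of -0.30 to 0.41. Libraries numbered 87 and 103 alone, chosen after seeing the data, gave 3 higher (5.21% of all genes) and a median of 0.42. The causes were not tested.

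Of 551 log2 fold changes of named members under 19 alternatives, 532 kept their direction and 19, in 6 members, did not. Scaling by total counts gave -7.3e-05 for Rpl11 and -0.12 for Rpl36a; leaving out both libraries numbered 110 gave -0.20 and -0.21, the replicate block -0.18 and -0.18, and the libraries numbered 87 and 103 -0.24 and -0.28. Leaving out 1 library at a time ranged from -0.13 to 0.60 for Rpl11, -0.093 to 0.41 for Rpl36a, -0.30 to 0.18 for Rps6, -0.64 to 0.0080 for Rpl10, -0.78 to 0.14 for Rps27 and -0.32 to 0.18 for Rps27a, and the log2 ratio of Rpl22l1 over Rpl22 from -0.20 to 0.049. The spread between libraries limits what these tests can call.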
